A study of Mus musculus with 8 samples.

Results

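The lung transcripts of 10 genes of acute myeloid inflammation were followed in 2 genotypes, wild type (WT) and DDAH1-transgenic (TG), each given PBS or house dust mite extract (HDM). The genes were Il1b, Il1a, Il1rn, Il1r2, Il6, Tnf, Tnfrsf1b, Acod1, Ccl3 and Ccl4. They were taken by gene identifier from the 23469 genes of the count table, and all 10 had a row. The members were chosen by their levels in the PBS-treated groups, where WT and TG had already been compared, and those values are therefore given as a description, with no p-value. The mean of each of the 10 was lowest in PBS-treated TG mice, with overlap of single libraries in Il6. After HDM, no difference between TG and WT lungs in these genes passed an adjusted p-value of 0.05 in edgeR's test.

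C57BL/6 WT and DDAH1-transgenic mice were given 50 µl of PBS, or the same volume with 100 µg of HDM, by the intratracheal route 3 times each week during 3 weeks, and the lungs were collected 24 hours after the final dose. The groups were WT PBS, TG PBS, WT HDM and TG HDM. Each group was a single RNA pool from the lungs of 4 mice, from which 2 libraries were made, 8 in all. Each SD below is therefore the spread between 2 libraries of 1 pool, and each p-value measures only that technical spread and not the spread between mice. The promoter that drives the transgene, the cells that express it, and the age and sex of the mice are not given in the sources used here.

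IL-1α and IL-1β are cytokines that act through a common receptor, and IL-1β is made as a precursor that inflammasome caspases cleave. IL-1 receptor antagonist (Il1rn) occupies that receptor without signalling, and the type 2 receptor (Il1r2) binds IL-1 as a decoy. Activated macrophages, monocytes and neutrophils make these proteins together with TNF, IL-6, the chemokines CCL3 and CCL4, and the mitochondrial enzyme encoded by Acod1, which makes itaconate from cis-aconitate and restrains succinate dehydrogenase.

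The 250 bases before the start sites of the members were searched for motifs. As background, the promoters of many acute cytokine genes are known to be bound by NF-kB and AP-1. The RefSeq promoter table for GRCm38.p6 held 11 windows for 9 of the 10 genes, and none for Ccl4. Searched on both strands were the TATA box TATAAA, the AP-1 motif TGANTCA and the NF-kB motif. TATAAA was present in 4 of the 11 windows, against 12.4% of 32851 windows of the same length. The AP-1 motif was present in 3 of 11 windows, against 6.75% of all windows, and the NF-kB motif in 1 of 11, against 5.93%. The 4 windows with TATAAA belonged to Il1b, Il1a, Tnf and Acod1. Those 4 windows are printed from 5′ to 3′, followed by that of Il6, which holds the NF-kB match, and capitals mark the bases of a match.

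Il1b, chr2:129371140-129371389, minus strand: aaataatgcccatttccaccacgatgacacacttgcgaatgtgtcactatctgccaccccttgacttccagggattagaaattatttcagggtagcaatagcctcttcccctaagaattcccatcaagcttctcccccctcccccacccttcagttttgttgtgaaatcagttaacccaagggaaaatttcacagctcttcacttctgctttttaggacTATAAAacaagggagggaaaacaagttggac
Il1a, chr2:129309973-129310222, minus strand: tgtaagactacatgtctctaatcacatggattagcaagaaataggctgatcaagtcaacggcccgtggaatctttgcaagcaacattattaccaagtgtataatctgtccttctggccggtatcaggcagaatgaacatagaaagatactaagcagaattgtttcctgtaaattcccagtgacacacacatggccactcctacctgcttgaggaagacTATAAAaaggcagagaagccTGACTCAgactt
Tnf, chr17:35202008-35202257, minus strand: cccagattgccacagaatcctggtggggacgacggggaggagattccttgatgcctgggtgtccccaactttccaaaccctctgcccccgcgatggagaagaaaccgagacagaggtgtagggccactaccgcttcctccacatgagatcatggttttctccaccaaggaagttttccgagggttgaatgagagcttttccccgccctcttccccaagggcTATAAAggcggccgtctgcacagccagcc
Acod1, chr14:103046762-103047011, plus strand: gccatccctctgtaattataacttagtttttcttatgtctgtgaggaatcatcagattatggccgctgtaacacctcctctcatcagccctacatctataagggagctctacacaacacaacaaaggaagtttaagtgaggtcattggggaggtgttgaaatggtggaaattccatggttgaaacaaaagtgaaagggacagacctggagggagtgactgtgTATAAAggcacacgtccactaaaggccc
Il6, chr5:30012864-30013113, plus strand: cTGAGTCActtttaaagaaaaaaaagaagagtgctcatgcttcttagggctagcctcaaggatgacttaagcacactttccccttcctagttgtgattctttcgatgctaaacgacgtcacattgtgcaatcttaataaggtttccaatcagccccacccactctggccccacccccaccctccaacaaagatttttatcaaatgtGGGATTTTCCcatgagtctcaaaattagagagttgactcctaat

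The first base of TATAAA stood at -31 from the start site in Il1b, at -32 in Il1a, at -29 in Tnf and at -28 in Acod1. In Il6 the NF-kB match began at -44 and an AP-1 match at -249, close to the end of the window. AP-1 matches also stood at -12 in Il1a and at -141 in the most upstream of the 3 Il1rn windows. The 2 genes with the largest difference between the PBS groups that have a window, Acod1 and Ccl3, did not share a motif, as the Ccl3 window held none of the 3. A match describes letters in the window and says nothing of binding in these lungs.

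Total counts per library were 5694928 to 11929374, and 3 counts corresponded to 0.232 to 0.450 CPM (counts scaled to the TMM-adjusted total of the library), the unit of level used below, as floors for counting error only. All 9 lung markers, among them the surfactant protein genes and Scgb1a1, were detected in every library. Ddah1 was at 47.8 and 34.3 CPM in WT PBS, 77.0 and 53.8 CPM in TG PBS, 43.1 and 44.7 CPM in WT HDM and 34.9 and 33.4 CPM in TG HDM. Ddah1 was thus higher with the TG label after PBS and lower with it after HDM, so that this gene does not check the label of the TG HDM libraries, and whether its counts take in the transgene is not given in the sources used here. Flrt2, picked with its values in view, went with the genotype label in all 8 libraries, at 21.3 to 30.8 CPM in those labelled WT and 239 to 332 CPM in those labelled TG. Xist was at 11.3 to 20.8 CPM in the PBS libraries and 2049 to 3042 CPM in the HDM libraries. Y-linked Ddx3y was at 58.7 to 69.0 CPM after PBS and at 2 or 3 counts in each library after HDM. These are the values of male lungs in the PBS libraries and of female lungs in the HDM libraries, though the labels give no sex. Treatment and sex therefore cannot be told apart in any comparison of HDM with PBS, also for genes outside the sex chromosomes. The same holds where a genotype difference after PBS is set against one after HDM.

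Levels of the IL-1 ligands were examined first. Il1b (GeneID 16176, chr2:129364569-129371164, minus strand of GRCm38) was at 44.4 and 43.3 CPM in WT PBS, 6.99 and 4.76 CPM in TG PBS, 19.8 and 27.1 CPM in WT HDM and 18.3 and 21.1 CPM in TG HDM. The WT PBS libraries were the highest, the TG PBS libraries were below all others, and the 2 HDM groups overlapped. Il1a (GeneID 16175, chr2:129299609-129310186, minus strand), its neighbour on the same strand, was at 13.0 and 24.6 CPM in WT PBS, 4.99 and 1.16 CPM in TG PBS, 23.5 and 10.3 CPM in WT HDM and 15.7 and 23.6 CPM in TG HDM. Here too the TG PBS libraries stood below the rest, but WT PBS, WT HDM and TG HDM all overlapped. The long noncoding gene Gm14023 lies over Il1a on the opposite strand, and since no source used here states stranded counting, reads of the 2 genes cannot be told apart.

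The proteins that restrain IL-1 were transcribed at very different levels. Il1rn (GeneID 16181, chr2:24336860-24351491, plus strand) was at 102 and 95.5 CPM in WT PBS, 24.0 and 42.4 CPM in TG PBS, 115 and 85.2 CPM in WT HDM and 127 and 80.9 CPM in TG HDM. Only TG PBS stood apart, and the other 3 groups overlapped. The decoy receptor gene Il1r2 (GeneID 16178, chr1:40084692-40125230, plus strand) was at 1.01 and 2.21 CPM in WT PBS, 0.699 and 0 CPM in TG PBS, 1.88 and 1.61 CPM in WT HDM and 3.45 and 0.775 CPM in TG HDM. The highest Il1r2 value came from 23 counts, and the TG HDM libraries spanned those of both WT groups. The lengths used are those of whole transcripts, while the authors counted reads in coding regions. Coding lengths were not used, so the size of a ratio between genes may differ with them. Per kilobase of whole transcript, Il1rn exceeded Il1b in each of the 8 libraries. This ratio was 1.26 and 1.21 in WT PBS, 1.88 and 4.88 in TG PBS, 3.20 and 1.72 in WT HDM and 3.81 and 2.10 in TG HDM, so that both WT PBS libraries were below the other 6.

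Il6, TNF and a TNF receptor followed. Il6 (GeneID 16193, chr5:30013114-30019975, plus strand) was at 0 and 1.23 CPM in WT PBS, 0.0998 and 0.740 CPM in TG PBS, 1.16 and 2.71 CPM in WT HDM and 3.45 and 1.47 CPM in TG HDM. No Il6 value exceeded 27 counts, and of the 10 genes only Il6 had TG PBS libraries that overlapped those of another group. Tnf (GeneID 21926, chr17:35199367-35202007, minus strand) was at 4.72 and 13.0 CPM in WT PBS, 2.50 and 0.211 CPM in TG PBS, 2.50 and 3.62 CPM in WT HDM and 3.90 and 5.27 CPM in TG HDM. The highest and lowest groups were again WT PBS and TG PBS, though the higher TG PBS library, with 25 counts, was only just below the lower WT HDM library with 28, both 2.50 CPM after rounding. Tnfrsf1b (GeneID 21938, chr4:145212368-145246870, minus strand), which encodes the TNF receptor found mainly on immune and endothelial cells, was at 63.0 and 67.6 CPM in WT PBS, 28.4 and 15.0 CPM in TG PBS, 47.9 and 51.7 CPM in WT HDM and 110.0 and 76.0 CPM in TG HDM. For Tnfrsf1b no neighbouring groups overlapped, and TG HDM was the highest of the 4.

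Acod1 and the chemokine genes were at or near 0 in TG PBS. Acod1 (GeneID 16365, chr14:103047012-103056573, plus strand) was at 49.6 and 46.9 CPM in WT PBS, 0.399 and 0 CPM in TG PBS, 11.4 and 7.84 CPM in WT HDM and 22.9 and 16.7 CPM in TG HDM. No neighbouring groups overlapped, and the 2 TG PBS libraries held 4 and 0 counts. Ccl3 (GeneID 20302, chr11:83647843-83649378, minus strand) was at 30.1 and 42.7 CPM in WT PBS, 0.300 and 0.529 CPM in TG PBS, 18.9 and 22.6 CPM in WT HDM and 20.1 and 30.3 CPM in TG HDM. The TG PBS libraries held 3 and 5 counts, and TG HDM overlapped the groups above and below it. Ccl4 (GeneID 20303, chr11:83648624-83664683, plus strand) was at 4.02 and 6.45 CPM in WT PBS, at 0 in both TG PBS libraries, at 6.35 and 18.0 CPM in WT HDM and at 11.7 and 9.53 CPM in TG HDM. The WT HDM libraries spanned those of TG HDM, and no count at all was found after PBS in TG mice. The RefSeq spans of Ccl3 and Ccl4 overlap on opposite strands, while those of GENCODE M21 do not (Ccl4 chr11:83662584-83664683), and reads in the shared stretch cannot be told apart.

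**Figure D1:**
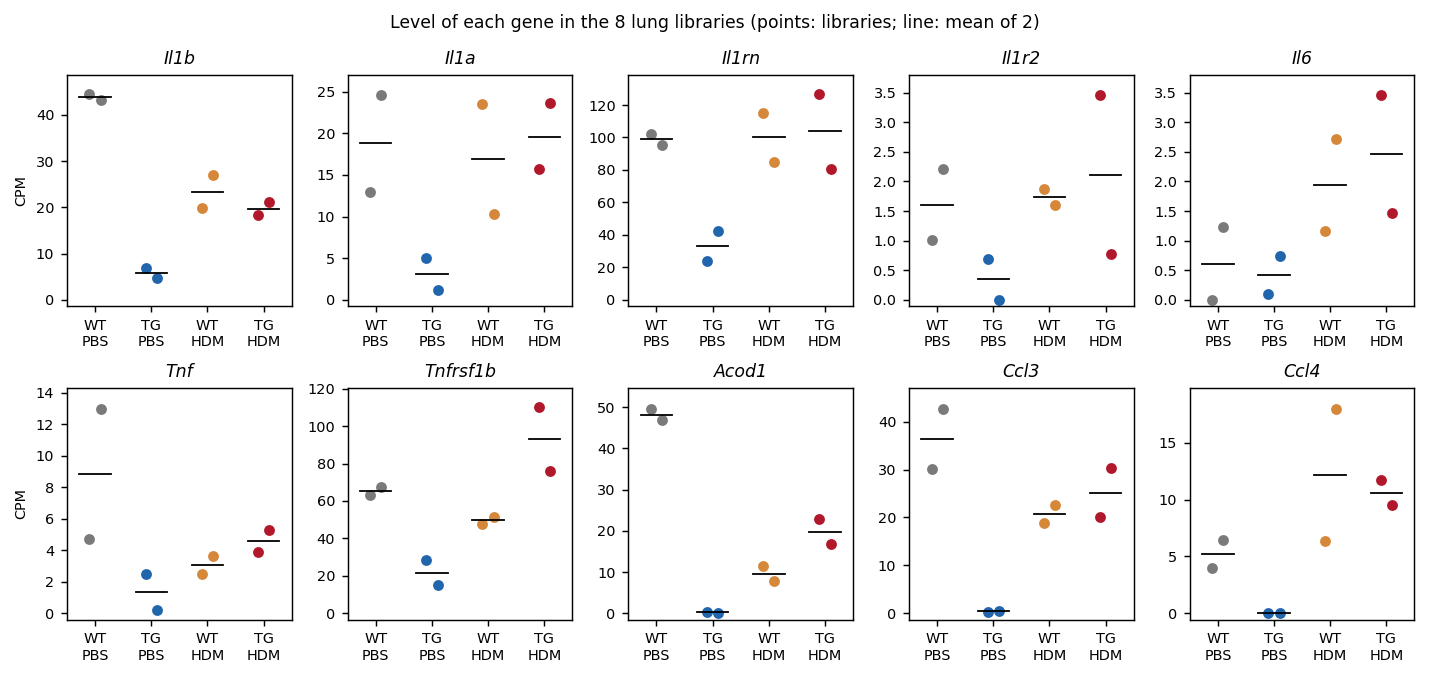
Level of each of the 10 genes in CPM (vertical axes, linear, each with its own range) in the 4 groups, with points for the 2 libraries of a group and a line for their mean. The TG PBS libraries were the lowest for 9 of 10 genes, with Ccl4 at 0 in both, and Tnfrsf1b was highest in TG HDM at 110.0 and 76.0 CPM.

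For 9 of the 10 genes, both TG PBS libraries were below all 6 other libraries. Of the 14926 genes tested between the PBS groups, 7.34% had that arrangement, which belongs to the values that chose the members, and nothing is read from it. Scaled to whole-transcript length, Ccl3 ranked first of the 10 in WT PBS at 47.5 CPM per kb, followed by Il1rn at 39.9. Il1b followed at 32.3, Acod1 at 18.4 and Tnfrsf1b at 17.1 CPM per kb. In TG PBS, Il1rn led at 13.4 CPM per kb, Tnfrsf1b was at 5.68 and Il1b at 4.33, while Ccl3 was at 0.541 and Acod1 at 0.0761 CPM per kb. After HDM, Il1rn led in both genotypes, at 40.5 CPM per kb in WT and 42.0 in TG, followed by Ccl3 at 27.1 and 32.9. On this scale Ccl3 held the first rank of the 10 in WT PBS and the sixth in TG PBS, and Acod1 the fourth and the ninth. Reads were counted in coding regions, so the ranks between genes may differ with coding lengths, which were not used.

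**Figure D2:**
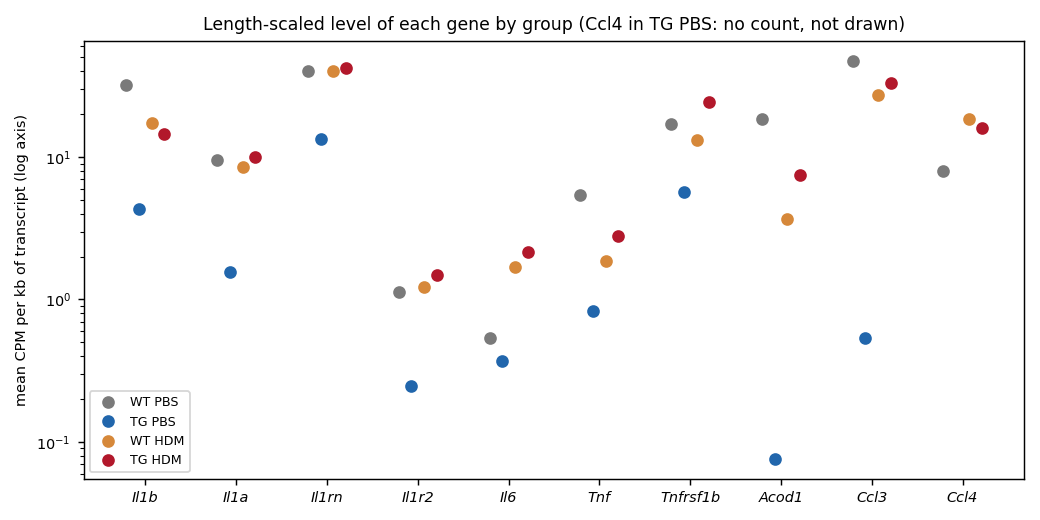
Mean level per kilobase of whole transcript (CPM per kb, log axis) of the 10 genes in each of the 4 groups (mean of 2 libraries). Reads were counted in coding regions, so the order of the genes may differ with coding lengths. In TG PBS, Acod1 lay at 0.0761 and Ccl3 at 0.541 CPM per kb, against 18.4 and 47.5 in WT PBS, and Ccl4 had no count and is not drawn.

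The ratio of the 2 chemokine genes differed between WT PBS and the HDM groups, where treatment and sex cannot be told apart. Per kilobase, Ccl3 exceeded Ccl4 6.44 and 5.70 times in WT PBS, 2.56 and 1.08 times in WT HDM and 1.48 and 2.74 times in TG HDM. Both WT PBS libraries were above all 4 HDM libraries, and no ratio exists for TG PBS. Tnfrsf1b exceeded Tnf per kilobase by 5.73 and 2.24 times in WT PBS, 4.88 and 30.5 times in TG PBS, 8.22 and 6.14 times in WT HDM and 12.1 and 6.19 times in TG HDM. The value of 30.5 rests on 2 counts of Tnf. The size of all these ratios rests on whole-transcript lengths, while the reads were counted in coding regions.

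The genotypes were first compared after PBS, where the values are a description. Acod1 fell from 48.2 ± 1.90 CPM in WT to 0.200 ± 0.282 CPM in TG (SD over n = 2), with -7.81 as the log2 fold change (SE 0.59). Ccl3, at 36.4 ± 8.95 CPM in WT and 0.414 ± 0.162 CPM in TG, differed by a log2 fold change of -6.44 (SE 0.53). Ccl4 was at least 17.0-fold lower in TG, against a floor of 3 counts per library. The cytokine and receptor genes differed less in size than Acod1 and Ccl3.

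Il1b fell by 2.91 on the log2 scale (SE 0.35), from 43.9 ± 0.812 to 5.87 ± 1.58 CPM. Il1rn fell by 1.59 (SE 0.25), from 98.8 ± 4.64 to 33.2 ± 13.0 CPM, and Tnfrsf1b fell by 1.60 (SE 0.30), from 65.3 ± 3.25 to 21.7 ± 9.44 CPM. Il1a, Tnf and Il1r2 were also lower in TG, with log2 fold changes of -2.61 (SE 0.60), -2.70 (SE 0.87) and -2.16 (SE 1.28), and their groups did not overlap. Il6 was not tested, since its counts were below the filter. In all, 6 of the 9 genes in the fit were past an adjusted p-value of 0.05 and lower, where 0.375% of all genes tested were, and 9 of 10 did not overlap and were lower, where 20.4% of all genes did. Both shares stand beside values that chose the members, and nothing is read from them.

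The median of the 9 log2 fold changes was -2.70, against 0.00 over all genes tested. Single libraries moved the size of several differences. Without TG PBS replicate 1, which held its 4 counts, Acod1 was at least 152-fold lower in TG, and without replicate 2 its log2 fold change was -6.87. That of Tnf ranged from -5.32 without TG PBS replicate 1 to -1.80 without WT PBS replicate 2. That of Il1a was -4.00 without TG PBS replicate 1 and -1.91 without replicate 2, and Il1r2 was at least 5.06-fold lower without TG PBS replicate 1. Il1rn ranged from -2.04 to -1.22 and Tnfrsf1b from -2.12 to -1.20 over these fits.

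Neutrophil markers moved in the same direction after PBS. Summed over 13 markers, their level was 707 to 737 CPM in WT PBS and 296 to 356 CPM in TG PBS, and without the most abundant marker, Lcn2, it was 453 to 484 and 188 to 221 CPM. Of the list, 5 of the 11 tested passed the threshold, all lower (S100a8, S100a9, Mmp8, Ngp and Lcn2). Of the granule genes in the list, Mpo was at 0 in all 8 libraries and Elane in all but WT PBS replicate 2. Other granule genes had counts in WT PBS and lower means in TG PBS. These were Ngp (6.80 and 0.0529 CPM), Camp (1.55 and 0 CPM) and Ltf (19.4 and 6.40 CPM). The alveolar macrophage list was at 318 to 362 CPM in WT PBS and 394 to 418 CPM in TG PBS, and 0 of its 10 markers passed. It was split, with 5 markers higher in TG, all without overlap, and 5 lower. Of the lower ones 2 did not overlap, Marco (7.92 and 2.96 CPM) and Fabp4 (24.0 and 8.05 CPM). In the monocyte and interstitial macrophage list, Lyz2 made up most of the sum, at 11165 to 12278 CPM in WT PBS and 11561 to 13063 CPM in TG PBS. The other 9 markers of that list were at 297 to 328 CPM in WT PBS and 229 to 241 CPM in TG PBS. Of its 10 markers 8 had lower values in TG, 5 of them without overlap (Ccr2 61.5 and 30.6 CPM, Adgre1 23.6 and 12.7 CPM), the median log2 fold change was -0.44, and 0 passed. Over all genes tested between the PBS groups, 20.4% were lower in TG without overlap, and the share that was higher is not given here. In whole lung RNA, fewer cells of a type and less RNA per cell cannot be told apart.

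Markers of tissues outside the airway differed between the PBS pools as well. The thymocyte list was at 114 to 135 CPM in WT PBS and 49.6 to 62.8 CPM in TG PBS, with Rag1 and Cd4 past the threshold. The adipocyte list was at 81.1 to 90.4 CPM in WT PBS and 27.0 to 49.3 CPM in TG PBS, with 1 of 5 tested past the threshold and lower. The skeletal muscle list was at 51.2 to 56.0 CPM in WT PBS and 348 to 369.6 CPM in TG PBS, with 7 of 8 past the threshold and higher. The lung list differed too, at 41570.2 to 49121 CPM in WT PBS and 49994 to 72457 CPM in TG PBS. Of its 9 markers 8 had higher values in TG, where 50.1% of all genes tested did, and 2 were past the threshold and higher (Sftpa1 and Hopx). The part of any of these lists in the levels of the 10 genes was not tested.

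**Figure D3:**
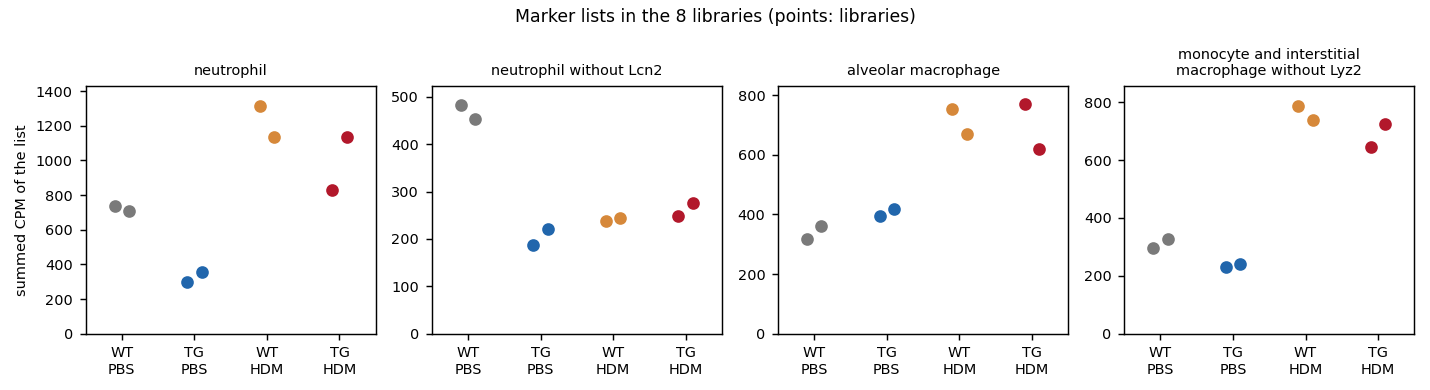
Summed level of the neutrophil list with and without Lcn2, of the alveolar macrophage list, and of the monocyte and interstitial macrophage list without Lyz2 (CPM, vertical axes from 0) in the 8 libraries, with a point per library and the 4 groups along the horizontal axes. The neutrophil sum was 296 to 356 CPM in TG PBS against 707 to 737 CPM in WT PBS, and without Lcn2 it was 188 to 221 against 453 to 484 CPM. The monocyte and interstitial list without Lyz2 was at 229 to 241 CPM in TG PBS against 297 to 328 CPM in WT PBS.

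The comparison of the genotypes after HDM used libraries that did not choose the members, and here the genes were tested. None of the 10 passed the threshold after Benjamini-Hochberg adjustment in edgeR's quasi-likelihood test, where 2.44% of the 15191 genes tested did. At an unadjusted p-value of 0.05, 2 of the 10 passed, where 16.2% of all genes did. With DESeq2, 1 passed an adjusted p-value of 0.05, where 922 of the 15191 genes tested did. The median log2 fold change of the 10 was 0.31, against 0.01 over all genes tested, and 8 were higher in TG. With an offset for transcript length, 6 were higher and 4 lower.

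Tnfrsf1b had the smallest p-value. It was at 49.8 ± 2.71 CPM in WT HDM and 93.0 ± 24.0 CPM in TG HDM (SD over n = 2), and its log2 fold change of 0.94 (SE 0.27, 95% interval 0.36 to 1.52) had an adjusted p of 0.0980 in edgeR's quasi-likelihood test. Tnfrsf1b passed with DESeq2 (adjusted p = 0.0279), without the low-count filter (0.0183) and without TG HDM replicate 2 (0.00107), the deeper of the TG HDM libraries. It did not pass with the other alternatives, where edgeR's adjusted p was 0.0656 to 0.514, the highest without WT HDM replicate 1. Acod1 was at 9.64 ± 2.55 CPM in WT HDM and 19.8 ± 4.43 CPM in TG HDM, a log2 fold change of 1.07 (SE 0.46, 95% interval 0.08 to 2.07) with an adjusted p of 0.269 in edgeR's test. Tnf was at 3.06 ± 0.788 and 4.58 ± 0.970 CPM, with a log2 fold change of 0.62 (SE 0.84, 95% interval -1.20 to 2.45) and an adjusted p of 0.769 in edgeR's test. For these 3 genes both TG HDM libraries were above both WT HDM libraries, an arrangement of 23.2% of all genes tested.

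The other 7 genes overlapped between the HDM groups. In edgeR's test Il1b had a log2 fold change of -0.21 (SE 0.38, adjusted p = 0.836) and Il1rn of 0.09 (SE 0.27, adjusted p = 0.913). The 95% intervals were -1.04 to 0.61 for Il1b and -0.50 to 0.68 for Il1rn. Between these pools they leave room for a difference of up to about 1 on the log2 scale in Il1b and less in Il1rn. The spread between mice is not in them, so they do not limit the difference between the genotypes. Il1a (0.25, 95% interval -0.78 to 1.28), Ccl3 (0.32, -0.50 to 1.14) and Ccl4 (-0.16, -1.40 to 1.08) had intervals that reached past 1 in at least 1 direction on the log2 scale. Il1r2 (0.29, -2.31 to 2.90) and Il6 (0.37, -2.06 to 2.81) had intervals past 2 in both directions, so that a difference of 2 on that scale was not detectable with these libraries. The adjusted p of these 5 genes in edgeR's test was 0.736 to 0.938. Leaving out 1 library turned the sign of Il1b, Il1a, Il1rn, Il1r2, Il6 and Ccl4, and the signs of Tnf, Tnfrsf1b and Acod1 remained positive.

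The neutrophil list was at 1135 to 1312 CPM in WT HDM and 830.2 to 1136 CPM in TG HDM, with 0 of 9 tested markers past the threshold. Lcn2 made up 889.7 to 1075 CPM of it in WT HDM and 583 to 861 CPM in TG HDM, and the other markers summed to 237 to 245 CPM in WT HDM and to 248 to 276 CPM in TG HDM, the opposite direction. Of the 9 tested neutrophil markers, 4 had higher and 5 lower values in TG HDM. Without overlap, 2 of the 13 listed were higher, S100a8 (15.7 and 36.1 CPM) and S100a9 (12.6 and 30.2 CPM). Neither passed (adjusted p = 0.143 and 0.195 in edgeR's test). Another 4 of the 13 were lower without overlap, among them Csf3r (78.5 and 56.8 CPM), Mmp9 and Lcn2. Alveolar macrophage markers were at 668 to 753 and 620.0 to 769 CPM, and 1 of 10 passed, Fabp4, at 16.3 CPM in WT HDM and 66.3 CPM in TG HDM (adjusted p = 0.0420 in edgeR's test). Of these 10, 6 had higher and 4 lower values in TG. Without overlap, 4 were higher and 1 lower (Itgax, 216 and 153 CPM). Over all genes tested between the HDM groups, 23.2% were higher in TG without overlap, and the share that was lower is not given here. The adipocyte list was at 35.0 to 38.6 CPM in WT HDM and 22.2 to 77.9 CPM in TG HDM, and 0 of 5 tested passed. The monocyte and interstitial macrophage list without Lyz2 was at 737 to 788 and 645 to 724 CPM, and 0 of 10 passed. The TG HDM library with the fewest counts, replicate 1, held the higher Tnfrsf1b and Acod1 values. The part of depth and of these lists in the differences was not tested.

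**Figure D4:**
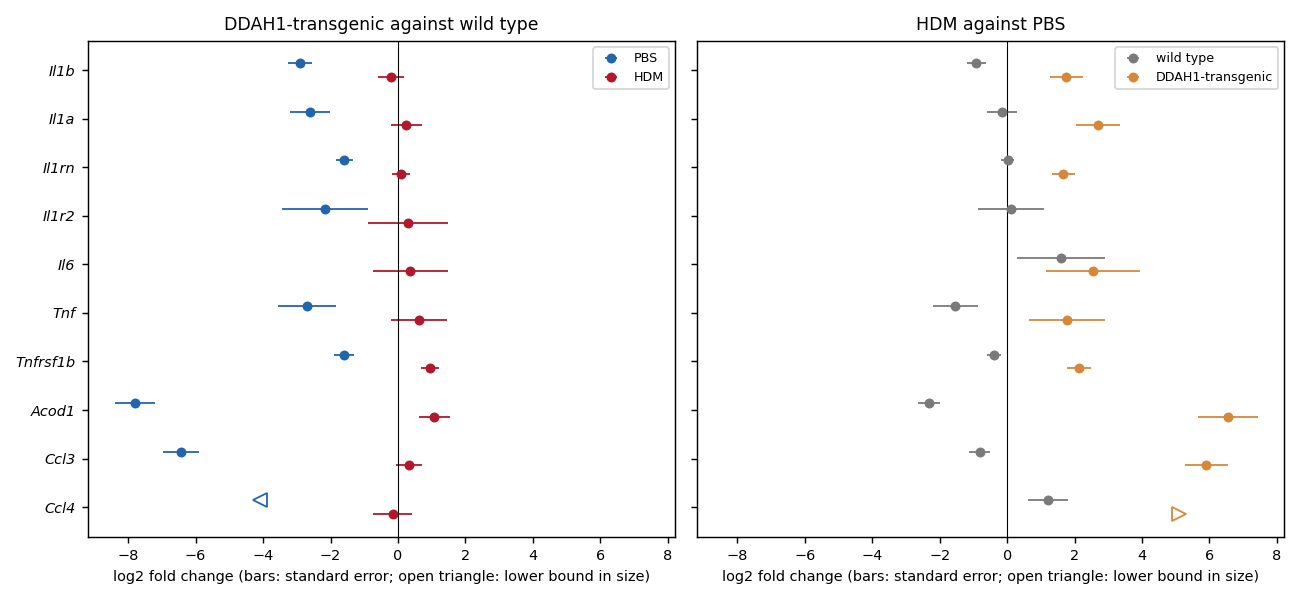
Log2 fold change of the 10 genes for TG against WT after PBS and after HDM (left) and for HDM against PBS in WT and in TG (right). Bars are standard errors from the fits on 2 libraries per group, and open triangles are lower bounds of the size for Ccl4, which had no count in TG PBS. The PBS points for TG against WT lie between -7.81 and -1.59, whereas the HDM points lie between -0.21 and 1.07. Treatment and sex cannot be told apart between the PBS and the HDM libraries.

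HDM-treated libraries were then compared with PBS-treated ones within each genotype. These comparisons use the PBS libraries that chose the members and are a description. In WT mice, Acod1 was the only member past the threshold, at 48.2 ± 1.90 CPM after PBS and 9.64 ± 2.55 CPM after HDM, a log2 fold change of -2.32 (SE 0.32). Thus 1 of 10 members was past the threshold and lower, where 2.30% of all genes tested were. Il1b (-0.91, SE 0.28), Ccl3 (-0.81, SE 0.31), Tnf (-1.54, SE 0.67) and Tnfrsf1b (-0.39, SE 0.21) had lower values after HDM without overlap, so that 5 of 10 members were lower in both HDM libraries, where 24.7% of all genes were. The log2 fold changes of Il1a (-0.15, SE 0.45), Il1rn (0.02, SE 0.19) and Il1r2 (0.11, SE 0.98) were smaller than their standard errors. Ccl4 (1.21, SE 0.59) and Il6 (1.60, SE 1.31) had higher means after HDM, with overlap.

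Without WT HDM replicate 2, the log2 fold change of Ccl4 was 0.26, and without WT PBS replicate 2 that of Tnf was -0.64. That of Il1a ranged from -0.86 without WT HDM replicate 1 to 0.37 without WT PBS replicate 2, and without WT PBS replicate 2, the only WT PBS library with Il6 counts, Il6 was at least 6.42-fold higher after HDM. The median over the 10 was -0.27, against 0.02 over all genes tested. With the length offset, 2 members were higher and 8 lower, in place of 4 and 6. The neutrophil list was at 707 to 737 CPM after PBS and 1135 to 1312 CPM after HDM, and without Lcn2 at 453 to 484 and 237 to 245 CPM, with 4 of its 11 tested markers past the threshold as lower and 1 as higher. The monocyte and interstitial macrophage list without Lyz2 was at 297 to 328 CPM after PBS and 737 to 788 CPM after HDM, with 6 of 10 past the threshold as higher and 1 as lower. The part of these lists was not tested.

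In TG mice, all 10 members were higher in both HDM libraries than in both PBS libraries, where 28.8% of all genes were. Of the 9 tested, 7 were past the threshold and higher, where 8.43% of all genes were. The log2 fold change of Acod1 was 6.54 (SE 0.89), up to a mean of 19.8 ± 4.43 CPM, and that of Ccl3 was 5.91 (SE 0.64), up to 25.2 ± 7.22 CPM. Ccl4 was at least 34.4-fold higher after HDM. The log2 fold changes of Il1a (2.69, SE 0.66), Tnfrsf1b (2.13, SE 0.35), Il1b (1.76, SE 0.48) and Il1rn (1.67, SE 0.34) were also past the threshold.

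Tnf (1.77, SE 1.12) and Il6 (2.54, SE 1.39) were not past it, and Il1r2 was not tested. The median was 2.54, against 0.03 over all genes tested. Without TG PBS replicate 2 fewer members passed, as did fewer of all genes, and the median of the members was 2.07. Without TG PBS replicate 1 the median was 3.41 with genes at 0 taken at their bound. Acod1 was at least 62.4-fold higher without TG PBS replicate 1 and its log2 fold change was 5.61 without replicate 2, and that of Tnf was 4.37 without replicate 1. The neutrophil list was at 296 to 356 CPM after PBS and 830.2 to 1136 CPM after HDM in TG mice, and without Lcn2 at 188 to 221 and 248 to 276 CPM, with 2 of 9 tested markers past the threshold and higher. The monocyte and interstitial macrophage list without Lyz2 was at 229 to 241 and 645 to 724 CPM, and 8 of 10 markers were past the threshold and higher. The part of either list was not tested.

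The wider pathways were described with 69 further genes in 9 lists. After PBS, 1 of the 63 tested genes (1.59%) differed between the genotypes, near the 0.657% of all genes, and the median log2 fold change was -0.21. This was Hmox1, which encodes the haem-degrading enzyme heme oxygenase 1, at 48.3 CPM in WT and 15.9 CPM in TG (log2 fold change -1.61, SE 0.34, adjusted p = 0.0259 in edgeR's quasi-likelihood test). The call of Hmox1 was lost with the length offset (adjusted p = 0.0567 in edgeR's test) and without WT PBS replicate 2 (adjusted p = 0.427). No gene of the IL-1 receptor, inflammasome, TNF or NF-kB lists passed. The IL-1 family ligands had a median of -1.12 over 3 tested genes and the inflammasome genes of -0.56 over 7.

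After HDM, 1 of 65 tested pathway genes (1.54%) differed between the genotypes, against 2.44% of all genes. This was Osmr, which encodes a subunit of the oncostatin M receptor, at 165 CPM in WT and 75.5 CPM in TG (log2 fold change -1.09, SE 0.24, adjusted p = 0.0362 in edgeR's test). The call was lost with the length offset (adjusted p = 0.116) and without either WT HDM library (adjusted p = 0.317 without replicate 1 and 0.424 without replicate 2 in edgeR's test). In the IL-6 family list 8 of 9 genes had lower values in TG, where 49.5% of all genes tested did, the median was -0.64, and Osmr alone passed. The IL-1 ligand, inflammasome and itaconate lists had medians of 0.08, 0.25 and 0.40, and none of their genes passed.

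HDM and PBS differed in WT mice at 2 of 65 pathway genes (3.08%), against 6.74% of all genes. Nlrp3, an inflammasome sensor, fell from 15.5 to 2.66 CPM (log2 fold change -2.54, SE 0.65, adjusted p = 0.0314 in edgeR's test), a call lost without WT PBS replicate 2 (adjusted p = 0.647) and with all 8 libraries fitted together (adjusted p = 0.110). In TG mice 20 of 65 (30.8%) passed, against 13.8% of all genes, 14 higher and 6 lower.

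Among those 20 were the lymphotoxin genes, Lta at least 6.84-fold higher (adjusted p = 0.0425 in edgeR's test) and Ltb with a log2 fold change of 4.09 (SE 1.22, adjusted p = 0.0445 in edgeR's test). In the IL-6 family list 5 of 9 genes fell, among them Il6ra by 1.14, Il11 by 1.08 and Lifr by 1.01 on the log2 scale, with adjusted p-values of 0.0126, 0.0385 and 0.00862 in edgeR's test. In the itaconate list, which holds the 4 succinate dehydrogenase subunits, 4 of 7 rose and 1 fell. The subunit genes Sdhb (2.04 on the log2 scale), Sdhc (1.67) and Sdhd (1.45) rose, Sdha (0.47, adjusted p = 0.245 in edgeR's test) did not pass, Hmox1 (1.86) rose, and Nfe2l2 fell by 0.63. The inflammasome list had 2 of 7 higher, Pycard at 2.89 and Gsdmd at 1.38, and these 2 and the itaconate genes were picked with their values in view. Without either TG PBS library, calls became fewer over all genes as well as in the pathway lists, and those of Il6ra, Il11, Lifr and Ltb were lost. Over the fits without 1 library, the log2 fold change of Il6ra was -1.34 to -0.98 and that of Il11 -1.34 to -0.85. That of Lifr was -1.27 to -0.82 and that of Ltb 2.99 to 5.61. With the length offset, calls over all genes in TG went from 1272 higher and 807 lower to 667 higher and 688 lower. The part of transcript length in the named genes was not tested. Treatment cannot be told apart from sex in either genotype.

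The genes whose log2 CPM followed Il1b and Acod1 most closely over the 8 libraries were sought among 11765 genes with a mean of at least 5 CPM. The 8 libraries come from 4 pools, and each correlation is a description. For Il1b, Hcar2, which encodes the receptor for niacin and the ketone body β-hydroxybutyrate, led with r = 0.993, and its mean level was 18.5 CPM in WT PBS, 1.84 in TG PBS, 11.4 in WT HDM and 7.66 in TG HDM. It was followed by Ldlrad4 (r = 0.951), Trim30b (0.940), Pygo2 (0.938) and Septin6 (0.925). For Acod1, Gm14023 had r = 0.955, Ldlrad4 0.951, Hcar2 0.943, Tlr6 0.934 and Utp25 0.927. Gm14023 lies over Il1a and not over Acod1, and its reads cannot be told apart from those of Il1a. Tlr6, a partner of Tlr2 in the sensing of microbial lipopeptides, was at 6.71 CPM in WT PBS, 0.150 in TG PBS, 5.54 in WT HDM and 9.22 in TG HDM. Hcar2 and Ldlrad4 were in both sets of 5.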

How the data were processed

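RNA-Seq was performed on lung RNA of 4 groups, with 4 mice pooled per group and 2 libraries per pool. The authors amplified the RNA, aligned the reads to mm10 (GRCm38) and added up those in every gene's coding region, and the counts they deposited are raw whole-number read counts for 23469 genes. The submitters' processing notes name bcl2fastq, CASAVA 1.8, TopHat and DESeq, and a version of TopHat and strand-specific counting are not given in the sources used here. Symbols and positions came from RefSeq GRCm38.p6 for 23372 genes, and transcript lengths from GENCODE M21 for 21145 (the APPRIS principal transcript, then a basic one, then the longest). All list genes had a row, 4 of them through a RefSeq synonym. Of the 50-base stretches of the members' transcripts, 0.289% of those of Il1rn and 0% of the other members' occurred in another gene's transcripts. The replicates of each group differed beyond sampling noise (mean chi-square per gene of 13.1 to 28.1) and were kept as 2 libraries.

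Each comparison was fitted on its own 4 libraries with edgeR 4.0.16 (R 4.3.3; quasi-likelihood test, TMM, filterByExpr with a count minimum of 10) over all genes, with Benjamini-Hochberg adjustment and a threshold of 0.05. The standard error is the log2 fold change divided by the square root of F. Levels are CPM on the TMM scale of all 8 libraries (prior count of 2 for log2 CPM), and where a group had no count, also after a library was left out, the fold is a bound against 3 counts per library. Python 3.11.15 and pandas 2.3.3 made the summaries, and the fits were tested on simulated data. Named were all members, in each comparison the 3 further pathway genes with the largest change in each direction past the threshold, the 5 genes most correlated with Il1b and with Acod1, and Ddah1, Xist and Ddx3y as checks, with marker lists by counts and sums. Single markers, Flrt2 and the genes of the itaconate and inflammasome lists outside this rule were named after their values were seen, as was the choice to sum marker lists without their most abundant gene. A pathway gene that this rule names is not reported here. The members and lists were chosen with earlier results of these data known. Alternatives were RLE size factors, DESeq2 1.42.0, the replicate number as a block, no filter on low counts, all 8 libraries together, a length offset (loess, span 0.5) and leaving out each library. Where a left-out library leaves a group with 1 library, that library is assumed to vary like the other group.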

Additional observations from a re-analysis of the deposited data

Results flagged for a closer look

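For 5 members and 1 pathway gene, the libraries of 1 group moved one way and those of the other group the opposite way under the same contrast, and the difference between the contrasts was not tested. For TG against WT, Tnf had log2 fold changes of -2.70 after PBS and 0.62 after HDM, Tnfrsf1b of -1.60 and 0.94, and Acod1 of -7.81 and 1.07. For HDM against PBS, Il1b had log2 fold changes of -0.91 in WT and 1.76 in TG, Tnf of -1.54 and 1.77, Tnfrsf1b of -0.39 and 2.13, Acod1 of -2.32 and 6.54, and Ccl3 of -0.81 and 5.91. Osmr had 0.44 in WT and -0.88 in TG. Each of these pairs holds TG PBS, whose values chose the members. Treatment cannot be told apart from sex in the HDM contrasts. The same holds for the change of a genotype difference from PBS to HDM. Groups of 2 libraries could not be searched for outlying libraries.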

How the results depend on the processing

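The spread here lies between 2 libraries of a pool and no fit covers the spread between mice. After PBS, the 9 tested members remained lower in TG with RLE size factors, DESeq2, the block, the length offset and all 8 libraries. Leaving out 1 library gave 5 to 8 members past the threshold (6 as reported) and a fitted median log2 fold change of -4.66 to -2.08, where the -4.66 is -3.60 with genes at 0 taken at their bound. These counts describe values that chose the members. In TG, HDM against PBS gave 3 to 7 members past the threshold and a fitted median of 1.94 to 4.22, the latter 3.41 with such bounds. After HDM, the number of members that differed between genotypes was 1 with DESeq2 and 1 without the filter on low counts. Over all genes these settings gave 922 of 15191 and 1055 of 18554. In WT, HDM against PBS gave 2 members with DESeq2, 2 without the filter and 2 with the length offset. The all-gene calls with these 3 settings were 1393 of 15123, 1588 of 18603 and 949 of 15123.

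The pathway genes past the threshold after PBS numbered 2 with DESeq2, 3 without the filter, 2 with all 8 libraries and 0 with the length offset (0 to 4 without a library). After HDM they numbered 6, 7, 5 and 0 (0 to 9). In WT, HDM against PBS gave 5 with DESeq2, 5 without the filter and 1 with all 8 libraries (1 to 7), and in TG 10 with the length offset (2 to 23). The cause of these shifts was not tested, apart from the other number of genes tested without the filter.

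Members whose sign after HDM turned were small differences. With the length offset Il6 was at -0.03 and Ccl3 at -0.30. Leaving out a library gave Il1b -0.44 to 0.04, Il1a -0.21 to 0.94, Il1rn -0.29 to 0.39, Il1r2 -1.14 to 1.03, Il6 -0.37 to 1.11 and Ccl4 -0.74 to 0.78.

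Libraries with the same replicate number did not deviate together, with correlations of -0.0214 to 0.0174 over 15868 genes, so that the numbers do not pair the libraries. With the replicate number as a block, Il1r2 was at -0.02 and Ccl4 at 0.00 after HDM, 4 members were past the threshold after PBS in place of 6, 0 pathway genes passed after PBS and 4 after HDM, and Hmox1 had an adjusted p of 0.0671 in edgeR's test. Over all genes the block gave 46 calls in place of 98 after PBS and 625 in place of 370 after HDM. The calls over all genes after HDM numbered 175 with the length offset, 1055 without the filter, 922 with DESeq2, 771 with all 8 libraries, and 6 or 20 without WT HDM replicate 1 or 2. The higher share of those calls went from 279 of 370 to 96 of 175 with the length offset. After PBS all-gene calls numbered 223 with DESeq2, 306 without the filter, and 432 or 275 without TG PBS replicate 1 or 2. For HDM against PBS they ranged from 652 to 1661 in WT (1020 as reported) and from 277 to 2834 in TG (2079 as reported). With these libraries, differences in Il6 and Il1r2 of 2 on the log2 scale were not detectable after HDM.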
